A study of Danio rerio with 14 samples.

Results

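The mucin gene muc5.1 and the anterior gradient gene agr2 were followed through 12 RNA-seq libraries of zebrafish larvae. Both are genes of mucus-secreting cells and were selected on their levels and differences from DMSO in these same libraries, which were already known. They were found by symbol and are 2 of the 36351 genes in the deposited tables. Their levels and differences are therefore given as a description, without a test. The 3 groups consisted of AB strain larvae sampled at 96 hours post fertilization. They had been kept from 3 hours post fertilization in 0.03 µg/L M510F01, in 0.03 µg/L boscalid, or in the solvent DMSO at 0.01% by volume, which served as the control. Boscalid is an agricultural fungicide that acts on mitochondrial complex II, and M510F01 is formed from it. Each group is represented by 4 libraries of whole larvae. One more sample of M510F01 and one more of boscalid were not analysed here. The labels leave unstated whether replicates came from different clutches or tanks, so every error and p measures the spread between these samples, which may be partly technical.

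Mucus coats the skin, the gill chamber and the gut of fish, and at larval stages much of it comes from single mucus cells of the epidermis and goblet cells of the intestine. The gel of mucus is built from very large, heavily O-glycosylated mucins that are joined by disulfide bonds. In zebrafish, muc5.1 encodes a gel-forming mucin and is a common marker of mucus cells. The gene agr2 encodes a resident of the endoplasmic reticulum from the protein disulfide isomerase family. In mice it is needed for intestinal mucin production, and in zebrafish for the maturation of intestinal goblet cells.

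Per library, 12893093 to 17060350 reads were counted in genes. Levels are given as normalized counts, that is, reads divided by 1 size factor per library so that all 12 libraries share a scale. These levels are not divided by gene length, so muc5.1 and agr2 are compared between libraries and not with each other. Differences are on the scale of log2(normalized count + 1). For each compound they were computed against DMSO within that compound's own deposited table. Both genes passed the requirement of a mean normalized count of at least 10 in every comparison. In bulk RNA from whole larvae, fewer mucus cells and less muc5.1 or agr2 RNA per cell cannot be told apart.

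muc5.1 was lowest in boscalid larvae. It had 2965, 2579.5, 2032 and 2747 normalized counts in the 4 boscalid libraries, against 5298, 4137, 3385 and 5118 in the 4 DMSO libraries. Every boscalid library lay below every DMSO library, with the highest boscalid value at 2965 and the lowest DMSO value at 3385. The mean was 2581 ± 399 in boscalid larvae and 4484 ± 893 in DMSO larvae (SD, n = 4 each). The log2 difference, boscalid minus DMSO, was -0.79 with a standard error of 0.17, which is 1.73-fold lower. Among the 23085 genes tested in this comparison, 313 genes (1.36%) had a difference as low or lower. The same separation, every boscalid library below every DMSO library, held for 2.07% of all genes tested. This contrast was known when muc5.1 was chosen, so nothing is read from that share.

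In M510F01 larvae muc5.1 stood between the other groups and varied most. The 4 M510F01 libraries had 3345, 4736, 4754 and 2861 normalized counts, with a mean of 3924 ± 968 (SD, n = 4). Libraries 2 and 3 lay within the DMSO range, and libraries 1 and 4 lay below every DMSO library. For library 1 the gap was narrow, at 3345 normalized counts against 3385 in DMSO library 3. The log2 difference, M510F01 minus DMSO, was -0.20 with a standard error of 0.19, and the groups overlapped. Full separation in this comparison was seen for 1.06% of all genes in the lower and 1.12% in the higher direction. Without M510F01 library 4 it was -0.06.

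The compounds were set at the same concentration and sampled at the same age, so M510F01 and boscalid larvae can be compared directly. In the joint fit of all 12 libraries muc5.1 was 1.499-fold higher in M510F01 than in boscalid larvae, a log2 difference of 0.58 with a standard error of 0.19. Of the 4 M510F01 libraries, 3 lay above every boscalid library, and full separation in that direction was seen for 1.06% of all genes. The exception was library 4, at 2861 normalized counts, which lay below boscalid library 1, at 2965. Among 23131 genes tested, 422 genes (1.82%) had a difference as high or higher. M510F01 and boscalid larvae were each set against the same 4 DMSO libraries, so their differences from DMSO share that term.

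**Figure D1:**
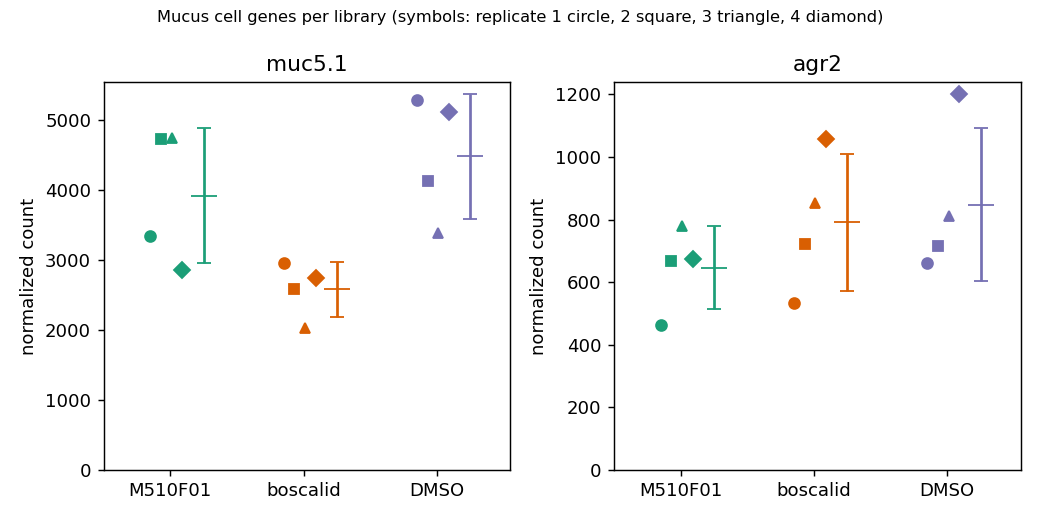
Normalized counts of muc5.1 and of agr2 in each library of the M510F01, boscalid and DMSO groups. Points are libraries and the dash with its bar is the mean ± SD (n = 4). All 4 boscalid points for muc5.1, from 2032 to 2965, lie below the DMSO points, from 3385 to 5298, while the agr2 points of the 3 groups overlap.

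agr2 did not share this order of groups. It had 533, 722, 852 and 1056 normalized counts in the boscalid libraries, against 661, 716, 811 and 1202 in the DMSO libraries. Only boscalid library 1 lay below every DMSO library, and the other boscalid values ran through the DMSO range. The mean was 791 ± 220 in boscalid larvae and 847 ± 244 in DMSO larvae (SD, n = 4 each). The log2 difference was -0.10 with a standard error of 0.23. Its sign rested on single libraries, being 0.08 without DMSO library 4 and 0.07 without boscalid library 1. Leaving out 1 library also makes the groups uneven in replicate number, by which agr2 levels differed in each group.

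The lowest mean of agr2 was in M510F01 larvae. The 4 M510F01 libraries had 463, 668, 780.3 and 675 normalized counts, a mean of 647 ± 133 (SD, n = 4). Again 1 of 4 lay below every DMSO library, and the groups overlapped. The log2 difference, M510F01 minus DMSO, was -0.37 with a standard error of 0.20. Of the 23193 genes tested, 992 genes (4.28%) had a difference as low or lower. The value was -0.19 without DMSO library 4, the highest agr2 library of the series. M510F01 minus boscalid was -0.27 with a standard error of 0.23, again with overlapping groups. Separation in that direction was seen for 1.39% of all genes.

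By limma, with p-values adjusted over all genes by the Benjamini-Hochberg method at a threshold of 0.05, neither gene was called in any comparison in the fit of groups alone. The share of all genes called was 0.0173% for boscalid minus DMSO (4 genes of 23085), 0% for M510F01 minus DMSO, and 0.013% for M510F01 minus boscalid. In the M510F01 comparison with DMSO, 837 genes had an unadjusted limma p under 0.05, and neither edgeR nor DESeq2 called a gene. DESeq2 on the recovered reads called muc5.1 for boscalid minus DMSO, among 0.394% of all genes tested, whereas edgeR called 4 genes and neither muc5.1 nor agr2. In M510F01 minus boscalid DESeq2 called 0.0865% of all genes, and neither muc5.1 nor agr2. In the authors' deposited table muc5.1 had a log2 fold change of -0.80 with a standard error of 0.18 and was 1 of 87 genes with an adjusted p under 0.05. Of those 87 genes in the authors' deposited table, 66 were lower in boscalid larvae and 21 were higher. The authors' deposited table gave agr2 a log2 fold change of -0.10 with a standard error of 0.24. Because the call for muc5.1 was known at the outset, these calls describe it and are not independent evidence.

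The spread between libraries of 1 group was larger than the counting error for both genes. Between 2351 and 5336 reads of muc5.1 were counted per library, which gives a counting error of 1.37% to 2.06%. For agr2 the reads numbered 453 to 1126 per library, with a counting error of 2.98% to 4.7%. The within-group SD of muc5.1 was 0.31 on the log2 scale, against a median of 0.21 over 505 genes of similar level (within 1.5-fold), 80.6% of which varied less. For agr2 the within-group SD was 0.37, against 0.17 over 3630 genes of similar level, 91.7% of which varied less.

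The 2 genes did not vary together. Pearson's r between muc5.1 and agr2 over the 12 libraries was 0.06 and Spearman's rho was -0.13, given here as a description because the libraries fall into 3 groups. After each group's mean was subtracted, r was 0.11 and rho was 0.049. The number of muc5.1 reads per agr2 read was 7.23, 7.09, 6.09 and 4.24 in the M510F01 libraries. It was 5.56, 3.57, 2.38 and 2.60 in the boscalid libraries and 8.01, 5.78, 4.18 and 4.26 in the DMSO libraries. The mean ratio was 6.16 ± 1.38 in M510F01, 3.53 ± 1.45 in boscalid and 5.56 ± 1.80 in DMSO larvae (SD, n = 4 each). Boscalid library 1 had a ratio above 2 of the DMSO libraries, so the ratio overlapped where muc5.1 itself did not. Those were DMSO libraries 3 and 4. At each replicate number the boscalid ratio was below the DMSO ratio, but the labels do not say that the numbers pair samples. The ratio also rests on muc5.1, which was chosen with this contrast known, so nothing is read from that order.

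agr2 levels split by replicate number, though only narrowly in M510F01 larvae. The libraries numbered 3 and 4 each lay above the libraries numbered 1 and 2 in M510F01, in boscalid and in DMSO larvae. The mean log2 difference between those pairs was 0.38 in M510F01, 0.61 in boscalid and 0.52 in DMSO larvae. In M510F01 larvae library 4, at 675 normalized counts, and library 2, at 668, differed by less than the counting error. The share of all genes with such a split was not counted, so it is not given as a trait of agr2. The paralog agr1 showed the same split in boscalid and DMSO but not in M510F01 larvae. The genes copb1 and arf1, named below for their likeness to agr2, showed it in all 3 groups. ca6, myl12.1 and padi2, named there too, showed it in boscalid and DMSO but not in M510F01 larvae. Likeness was ranked over these same libraries, so nothing is read from a split that such genes share with agr2. Library 1 was the lowest for agr2 in each group. The labels do not say what a replicate number stands for, and its part in the level of agr2 was not tested. muc5.1 showed no such split, with differences of -0.11, -0.23 and -0.17 for M510F01, boscalid and DMSO larvae. Its order from high to low was libraries 1, 4, 2, 3 in boscalid and in DMSO larvae, and 3, 2, 1, 4 in M510F01 larvae.

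**Figure D2:**
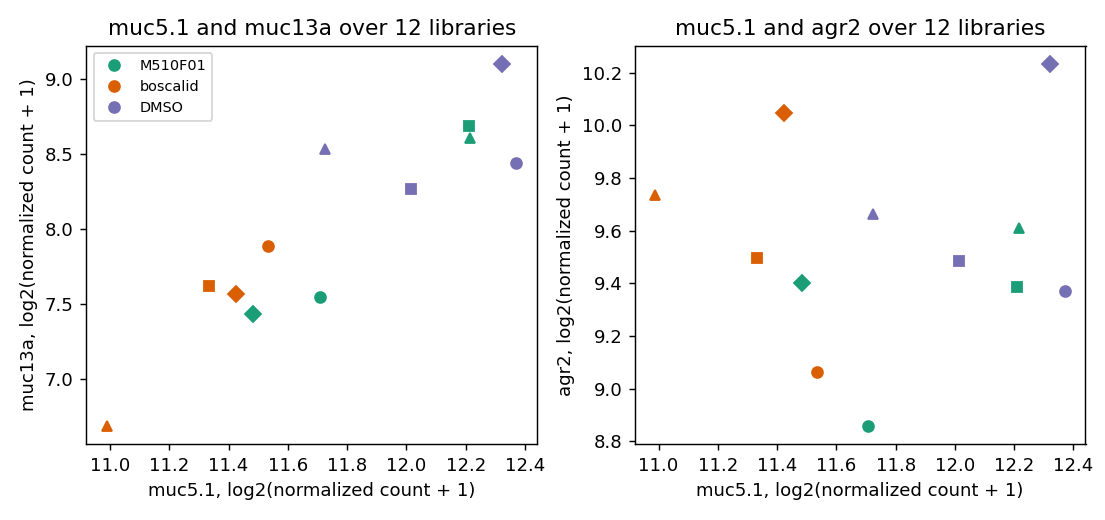
Left, muc13a against muc5.1, and right, agr2 against muc5.1, in the 12 libraries, as log2(normalized count + 1). Colour marks the group and the symbol marks the replicate number. muc13a follows muc5.1 with r = 0.90, and agr2 shows r = 0.06.

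The closest relatives of muc5.1 were the other mucins. Of 19 further mucin names listed, 6 matched the tables and all 6 were tested. For boscalid minus DMSO 5 of the 6 had a negative and 1 a positive log2 difference, with a median of -0.55 against -0.00 over all genes tested, and limma called 0. For M510F01 minus DMSO 4 were negative and 2 positive, with a median of -0.11, and for M510F01 minus boscalid 5 were positive and 1 negative, with a median of 0.35. All-gene medians were 0.00 in both of these comparisons, and limma called 0 mucins in either.

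muc5.2, another gel-forming mucin gene, is the direct neighbour of muc5.1 in the gene order that RefSeq gives for GRCz12tu. It averaged 625 ± 148 normalized counts in M510F01, 524 ± 141 in boscalid and 812 ± 138 in DMSO larvae (SD, n = 4 each). The log2 difference, boscalid minus DMSO, was -0.65 with a standard error of 0.18, which did not pass limma's test (adjusted p = 0.51). M510F01 minus DMSO gave -0.39. Tandem mucin genes resemble each other, and how the authors' counting treated reads that match several of them is not given in the sources used here. The division of reads between muc5.1 and muc5.2 is therefore uncertain.

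muc13a, a member of the membrane-bound mucin family, showed the same separation as muc5.1. It had 236, 196, 102 and 188 normalized counts in the boscalid libraries, against 348, 307, 371 and 549 in the DMSO libraries. The groups did not overlap, which held in this direction for 2.07% of all genes. The log2 difference was -1.15 with a standard error of 0.26 and a limma adjusted p of 0.36. In M510F01 larvae muc13a had 186, 412, 389 and 172 normalized counts. Libraries 1 and 4 were low and libraries 2 and 3 high, as they were for muc5.1 and muc5.2. The log2 difference, M510F01 minus boscalid, was 0.63 for muc13a with a 95% interval of -0.05 to 1.31. In the authors' deposited table muc13a had a log2 fold change of -1.13 for boscalid, with an adjusted p of 0.010.

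Of the remaining 4 listed mucins, muc5f had a boscalid minus DMSO difference close to that of muc5.2, and the others lay nearer to 0. For boscalid minus DMSO the log2 difference was -0.64 for muc5f, -0.36 for muc5.3 and -0.46 for the intestinal mucin muc2.1, with limma adjusted p-values between 0.65 and 0.68. muc13b, the paralog of muc13a, had a log2 difference of 0.15 (limma adjusted p = 0.79) and is the exception in sign. In M510F01 larvae, set against DMSO, muc5f had -0.08, muc5.3 0.03, muc2.1 -0.15 and muc13b 0.08. The tables also hold the mucin genes mucms1, muc5d and muc5e, which were outside the list and were picked after their values were seen. mucms1 had 83.8, 30.4, 161 and 71.4 normalized counts in the M510F01 libraries. It had 32.6, 69.7, 51.9 and 33.6 normalized counts in the boscalid libraries, against 70.5, 96.4, 141 and 206 in the DMSO libraries. Every boscalid library lay below every DMSO library, as for 2.07% of all genes in that direction. The nearest values almost met, at 69.7 in boscalid and 70.5 in DMSO larvae. The log2 difference of -1.39, with a standard error of 0.34 (limma adjusted p = 0.43), was further from 0 than that of muc5.1 or muc13a. In the authors' deposited table mucms1 had a log2 fold change of -1.45 for boscalid, with an adjusted p of 0.019. muc5d averaged 16.2 ± 4.80 normalized counts in M510F01, 15.3 ± 6.84 in boscalid and 23.8 ± 15.4 in DMSO larvae (SD, n = 4 each), with overlapping groups. muc5e was lower still, at means of 7.72 in M510F01, 8.12 in boscalid and 11.8 in DMSO larvae.

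**Figure D3:**
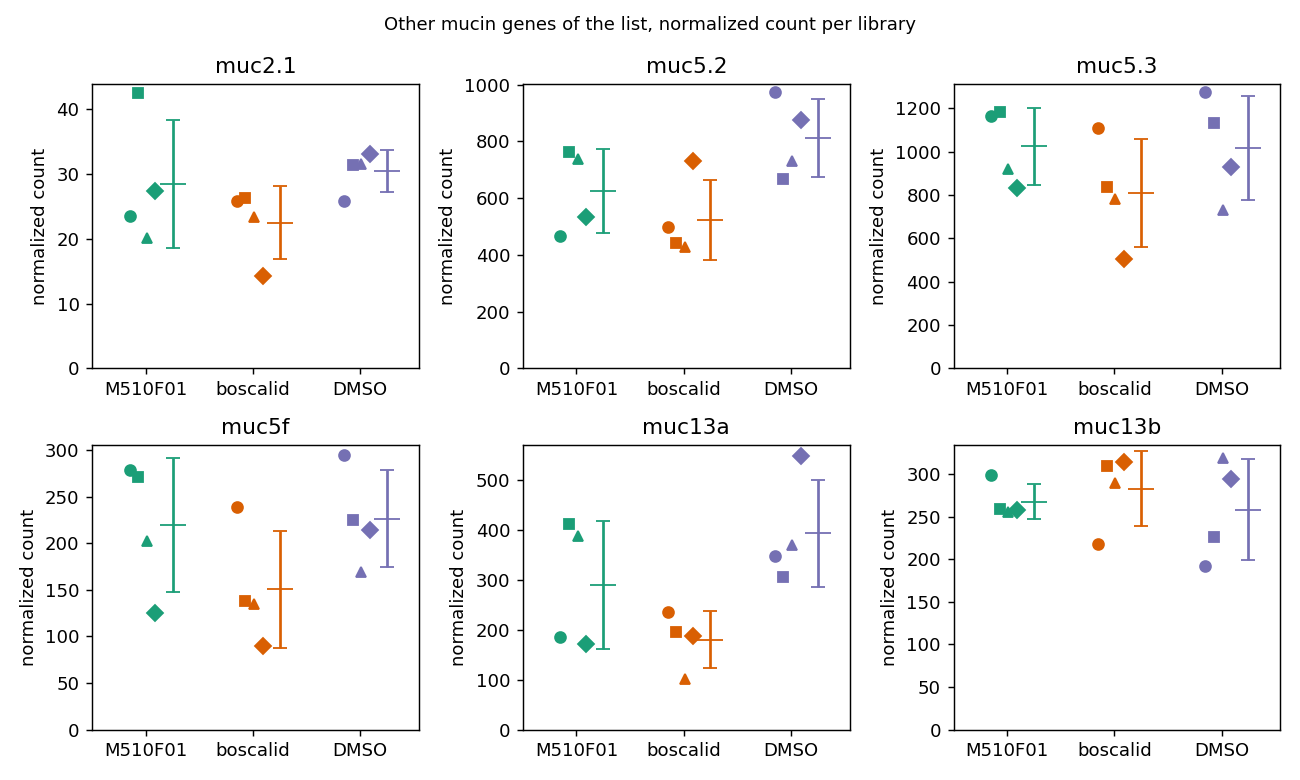
Normalized counts of muc2.1, muc5.2, muc5.3, muc5f, muc13a and muc13b by library, in M510F01, boscalid and DMSO larvae, with the mean ± SD (n = 4). The 4 boscalid points of muc13a lie below its 4 DMSO points, and the groups overlap for the other mucins.

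Neighbouring genes were measured on the muc5.2 side of muc5.1. For boscalid minus DMSO fanci, a DNA crosslink repair gene, had a log2 difference of 0.12, polg, the mitochondrial DNA polymerase gene, 0.27, and rhcgb, an ammonia transporter gene of ionocytes, -0.11. Beside agr2, tspan13b, a tetraspanin gene, had 0.16 and ppp1r10, a regulatory subunit gene of protein phosphatase 1, had 0.08.

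agr1, the paralog of agr2, had mean levels of 677 ± 166 normalized counts in M510F01, 604 ± 177 in boscalid and 695 ± 160 in DMSO larvae (SD, n = 4 each). Its log2 difference for boscalid minus DMSO was -0.22 with a standard error of 0.22 (limma adjusted p = 0.74). Like agr2 it was lowest in library 1 in the M510F01 and boscalid groups. Of the 19 further goblet cell products listed, 10 matched and 6 were tested. The smallest p for boscalid among them belonged to spink4, a protease inhibitor gene, at 0.48 (limma adjusted p = 0.65), followed by agr1. For boscalid minus DMSO 3 were positive and 3 negative with a median of -0.05, and for M510F01 minus DMSO all 6 tested were negative with a median of -0.10. limma called 0 in either comparison.

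Genes that make, fold and sugar-coat mucins were also counted. They included 21 other genes for protein disulfide isomerases, the family of agr2, and for redox enzymes that act with them, such as ero1a. Of these, 15 had a positive and 6 a negative log2 difference for boscalid minus DMSO, with a median of 0.06. Of the same 21 genes, 8 were positive for M510F01 minus DMSO and 13 were negative, with a median of -0.05. The smallest p among them for boscalid belonged to tmx3a, a membrane-bound disulfide isomerase gene, at a log2 difference of 0.43. It was followed by erp27, a non-catalytic member of the family, at 0.34 and ero1a, which encodes an oxidase that recharges disulfide isomerases, at -0.71 (limma adjusted p = 0.65 for each of the 3). Of 37 genes of the unfolded protein response, which agr2 is known to be linked to, 24 were positive for boscalid with a median of 0.09, and 10 were positive for M510F01 with a median of -0.10. The calcium-binding chaperone gene calr had 0.31 in the boscalid comparison (limma adjusted p = 0.64), and derl2, a gene of protein export from the endoplasmic reticulum, had -0.19 (limma adjusted p = 0.66).

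Mucin-type O-glycosylation, which adds the sugar chains of mucins, gave 15 positive and 24 negative genes of 39 tested for boscalid minus DMSO, with a median of -0.05. In the M510F01 comparison with DMSO 21 of 40 were positive, with a median of 0.01. The initiating transferase gene galnt6 had a log2 difference of -0.44 in boscalid larvae and the core 1 synthase gene c1galt1a had 0.43 (limma adjusted p = 0.63 for each). Of 25 genes for sugar nucleotide supply, 15 were negative for boscalid with a median of -0.04, and 22 were negative for M510F01 with a median of -0.12. uap1, which makes UDP-N-acetylhexosamines, had -0.46 for boscalid (limma adjusted p = 0.57), and gfpt2, at the entry to that pathway, had -0.63 (limma adjusted p = 0.63). Granule exocytosis genes gave 9 positive and 17 negative of 26 tested for boscalid, with a median of -0.07. The smallest p among them belonged to marcksb, a gene for a membrane-bound actin regulator, at 0.37 (limma adjusted p = 0.59), followed by the granule transport gene rab27a at -0.49 and marcksa at 0.29 (limma adjusted p = 0.65 for each). In marcksb and marcksa every boscalid library lay above every DMSO library, a separation seen for 2.2% of all genes, and 0 genes of the list were separated in the lower direction. The nearest boscalid and DMSO values almost met, at 1833 and 1811 for marcksb and 424.9 and 419.3 for marcksa.

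Among 25 transcription factor and Notch genes of mucus cells, 11 were positive and 14 negative for boscalid minus DMSO, with a median of -0.04. The median for M510F01 minus DMSO was 0.01. ehf, an epithelial ETS factor gene, averaged 13.0 ± 5.47 normalized counts in boscalid and 28.6 ± 7.73 in DMSO larvae (SD, n = 4 each). Its log2 difference was -1.12 with a standard error of 0.31 (limma adjusted p = 0.49). Its groups did not overlap, as for 2.07% of all genes in that direction. The nearest values of ehf almost met, at 20.7 in boscalid and 21.8 in DMSO larvae. ascl1a, a proneural factor gene, had a log2 difference of 0.53 in boscalid larvae (limma adjusted p = 0.43), with every boscalid library above every DMSO library, as for 2.2% of all genes. Of 17 matched genes for mucus-inducing signals, the cytokine genes il4, il13, il10, il17a/f1, il17a/f3, il22 and il26 fell below the required mean of 10. Of the 10 genes tested, 8 were negative for boscalid with a median of -0.35. The 3 with the smallest p were the interleukin receptor gene il4r.2 at -0.69 (limma adjusted p = 0.47), il13ra2, a decoy receptor gene in mammals, at 0.42 (limma adjusted p = 0.57) and the epidermal growth factor receptor gene egfra at -0.54 (limma adjusted p = 0.61). The groups were separated for il4r.2 in the lower direction, as for 2.07% of all genes, and for il13ra2 in the higher direction, as for 2.2%. For il13ra2 the nearest values were close, at 131 in boscalid and 127.5 in DMSO larvae. Of 15 channel and transporter genes for mucus hydration, 11 were positive, and the chloride channel gene clcn2c had 1.37 (limma adjusted p = 0.54). The chloride-bicarbonate exchanger gene slc26a3.1 had 1.504 (limma adjusted p = 0.43), at means of 16.2 normalized counts in boscalid and 5.31 in DMSO larvae. It reached the required mean of 10 only through the boscalid group, so nothing is read from its sign or size. The 11 positive genes of this list include slc26a3.1, so that count partly reflects the filter.

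Over the 5 lists of mucins, goblet cell products, transcription factors, disulfide isomerases and O-glycosylation, without muc5.1 and agr2, limma called 0 of 97 genes for boscalid minus DMSO. It called 0 of 98 for M510F01 minus DMSO and 0 of 97 for M510F01 minus boscalid. At an unadjusted limma p under 0.05 there were 10 of these genes for boscalid minus DMSO (10.3%, against 7.68% of all genes tested). There were 6 for M510F01 minus DMSO (6.12%, against 3.61%) and 7 for M510F01 minus boscalid (7.22%, against 4.6%). edgeR also called 0 of these genes in the 3 comparisons. DESeq2 called 1 of 97 for boscalid minus DMSO, which was muc13a, against 0.394% of all genes tested.

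**Figure D4:**
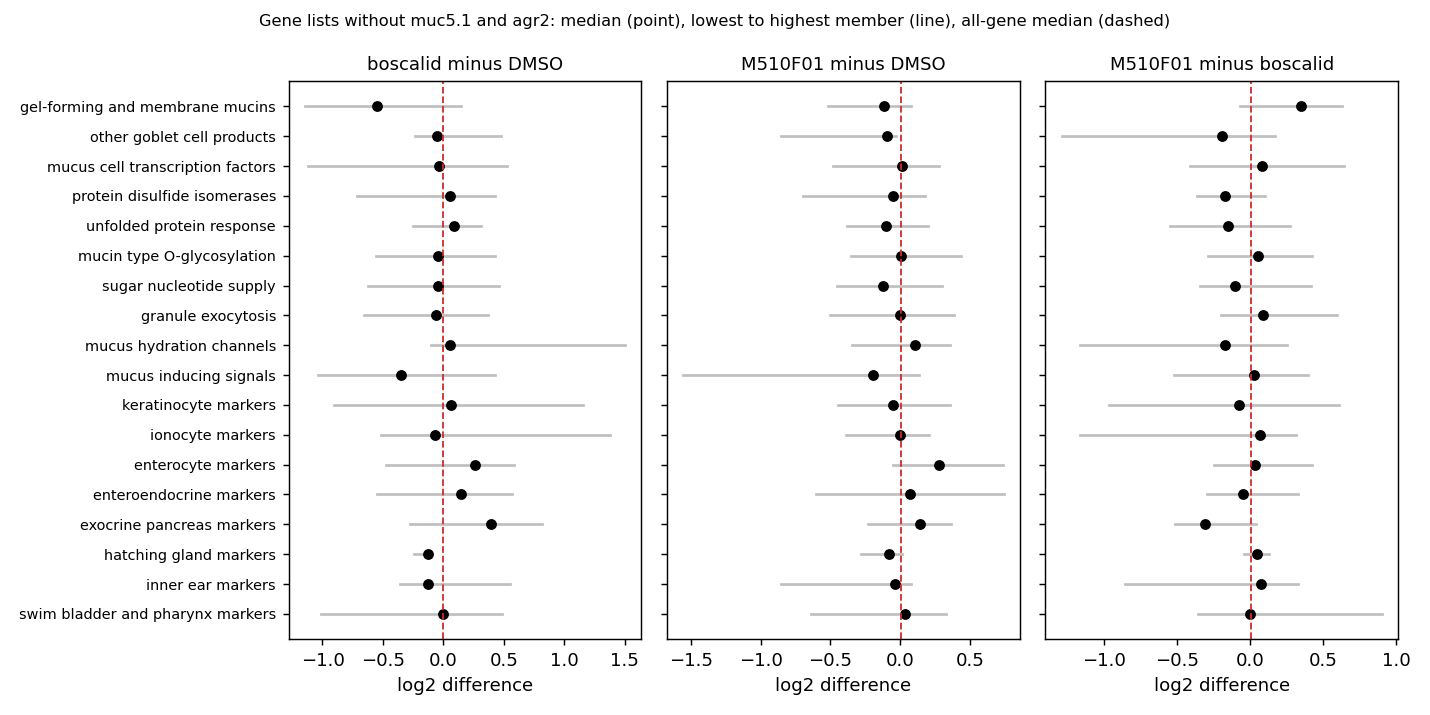
Median log2 difference of each gene list (point), with its lowest and highest member (line), for the 3 comparisons, without muc5.1 and agr2. The dashed line is the median of all genes tested. The mucin list has its median at -0.55 for boscalid minus DMSO, -0.11 for M510F01 minus DMSO and 0.35 for M510F01 minus boscalid.

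Markers of other epithelia were counted beside muc5.1. All 31 keratinocyte markers were detected, and their summed level ranged over 101217 to 169753 normalized counts in M510F01, 147387 to 222738 in boscalid and 132903 to 172937 in DMSO libraries. For boscalid minus DMSO 18 of the 31 were positive and 13 negative, with a median of 0.06. krt15, a keratin gene, averaged 3102 ± 152 normalized counts in boscalid and 1436 ± 402 in DMSO larvae (SD, n = 4 each). Its log2 difference of 1.15 did not pass limma's test (adjusted p = 0.12), and its groups did not overlap, which held in that direction for 2.2% of all genes. krt15 did pass by DESeq2 (adjusted p = 1.2e-05), with limma in the joint fit (adjusted p = 0.032), with limma and a term for replicate numbers (adjusted p = 0.042), and with limma without DMSO library 3 (adjusted p = 0.026). anxa1c, an annexin gene of the skin, had a log2 difference of 0.91 (limma adjusted p = 0.36, DESeq2 adjusted p = 0.010). DESeq2 called 3 of the 31 keratinocyte markers, krt15, anxa1c and cyt1l, all higher in boscalid larvae, against 0.394% of all genes. For M510F01 minus boscalid it called krt15, lower in M510F01 larvae, among 0.0865% of all genes. Summed ionocyte markers ranged over 23369 to 25331 normalized counts in M510F01, 22560 to 24712 in boscalid and 23715 to 26260 in DMSO libraries.

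Most enterocyte and exocrine pancreas markers had log2 differences from DMSO opposite in sign to that of muc5.1, unlike the intestinal mucin muc2.1. Of 26 enterocyte markers 21 were positive for boscalid minus DMSO, with a median of 0.26, and 23 were positive for M510F01 minus DMSO, with a median of 0.28. The smallest p for boscalid belonged to the chitinase gene chia.1 at 0.53 (limma adjusted p = 0.64) and the peptide transporter gene slc15a1b at 0.46 (limma adjusted p = 0.65). Their summed level ranged over 183970 to 237209 normalized counts in M510F01, 163673 to 218969 in boscalid and 169707 to 183383 in DMSO libraries. Of 18 exocrine pancreas markers 17 were positive for boscalid with a median of 0.40, led by the elastase gene ela2 at 0.81 (limma adjusted p = 0.51) and the carboxypeptidase gene cpa4 at 0.78 (limma adjusted p = 0.56). Medians for boscalid minus DMSO were 0.14 over 17 enteroendocrine, -0.07 over 21 ionocyte, -0.13 over 9 inner ear, -0.00 over 12 swim bladder and pharynx, and -0.13 over 3 hatching gland markers. The hatching gland markers he1.1, he1.3 and ctslb were near 0, at means of 1.103, 0.25 and 0.32 normalized counts. In the fit of groups alone limma called 0 genes of these marker lists, and so did edgeR. DESeq2 also called the ionocyte marker ca15a (1 of 21) and the enteroendocrine marker insm1a (1 of 17), both higher in boscalid larvae. It called 0.394% of all genes in that comparison. The part of these markers in the levels of muc5.1 and agr2 was not tested.

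Genes with the most similar pattern were ranked by Pearson's r over the 12 libraries, which share their scaling, among 15282 genes. For muc5.1 the closest were gak (0.93), abca12 (0.93), nepro (0.92), ildr1a (0.92), esrp2 (0.91), tmem168a (0.91), erbb2 (0.91), malt1 (0.91), stat5a (0.90) and muc13a (0.90). erbb2 encodes a receptor tyrosine kinase, stat5a a signal-dependent transcription factor, esrp2 an epithelial splicing regulator and gak a kinase of clathrin uncoating. abca12, whose human counterpart carries lipids for the skin barrier, averaged 1720 ± 231 normalized counts in M510F01, 1294 ± 200 in boscalid and 2072 ± 212 in DMSO larvae (SD, n = 4 each). Its order of groups was that of muc5.1, with a log2 difference of -0.69 for boscalid minus DMSO (limma adjusted p = 0.36). The ranking by r includes the differences between groups, so nothing is read from that shared order. gak, by contrast, had a log2 difference of -0.15. muc5.2 stood at rank 73 for likeness to muc5.1 with r = 0.83, muc5f at rank 443 with 0.70 and muc5.3 at rank 1466 with 0.56, while agr2 was at rank 6663.

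After each group's mean was subtracted, the closest to muc5.1 were pxna (0.91), ppp1r13l (0.89), dqx1, irak4, smc6, ildr1a (0.87), nepro (0.87), hic2, fam166b and sdccag8. ildr1a and nepro were thus among the closest 10 by either measure. muc13a then stood at rank 38 with r = 0.82 and muc5.2 at rank 175 with r = 0.73. The likeness of these mucins to muc5.1 was therefore also present in deviations pooled over the 3 groups, though not alike in each group. From high to low the DMSO libraries ran 1, 4, 2, 3 for muc5.1 and 4, 3, 1, 2 for muc13a. The orders were closer in M510F01 (3, 2, 1, 4 against 2, 3, 1, 4) and boscalid larvae (1, 4, 2, 3 against 1, 2, 4, 3).

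For agr2 the closest genes over all libraries were ca6 (0.97), myl12.1 (0.96), padi2, chmp2bb, cotl1, efhd2 and spaca4l (0.95 each), and cyp51, copb1 and arf1 (0.94 each). ca6 encodes a carbonic anhydrase, copb1 a subunit of the coat of Golgi vesicles and arf1 the small GTPase that recruits that coat. ca6 averaged 933 ± 90.7 normalized counts in M510F01, 1052 ± 176 in boscalid and 1080 ± 186 in DMSO larvae (SD, n = 4 each). With each group's mean subtracted, the closest were mapre1a (0.98), myl12.1 (0.97), lipia, tmprss4a, ctsc, copb1 (0.97), ufsp2, sult1st1, sp8a and chmp2bb (0.96). myl12.1, copb1 and chmp2bb were in both sets. agr1 stood at rank 1047 with r = 0.74 over all libraries, and at rank 412 with r = 0.86 within groups. muc5.3 ran against agr2, with r = -0.64 over all libraries and -0.72 within groups. muc5f did so too, with r = -0.53 and -0.66. For both mucins the libraries numbered 1 and 2 lay above those numbered 3 and 4 in each group, though narrowly for muc5f in boscalid larvae. That is the reverse of the split by replicate number in agr2. The part of replicate number in these correlations was not tested.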

How the data were processed

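RNA-seq of whole zebrafish larvae was analysed from 12 libraries in 3 groups of 4, taken from the labels. Per the submitters' processing notes the tools were FastQC, cutadapt, STAR, featureCounts and DESeq2. Their versions were not given in the sources used here, nor were the build, the annotation and the strandedness of counting. The authors deposited, per compound, a signal per gene in normalized counts, and whole reads could be recovered from its steps for 100% of values within 0.01 reads. The authors also deposited log2 fold changes with a score, the test statistic, and p-values and adjusted p-values for each gene.

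Differences were fitted with limma 3.58.1 in R 4.3.3 (trend and robust settings) on log2(normalized count + 1), for genes with a mean of at least 10. Benjamini-Hochberg adjustment ran over all genes, with a threshold of 0.05. M510F01 was compared with boscalid in a joint fit of 12 libraries rescaled by median-of-ratios size factors, and levels in the text are on that scale. The DMSO values of the 2 deposited tables differ by a ratio of 1.00296 to 1.00541. Recovered reads were also tested with edgeR 4.0.16 and DESeq2 1.42.0. Other alternatives were pseudocounts of 0.5 and 5, no filter, a filter of 50, TMM scaling, a replicate block, a term for replicate numbers, and leaving out each library. Of these fits, only limma on groups alone was tested on simulated data. Tables and figures used Python 3.11.15, pandas 2.3.3 and matplotlib 3.10.9.

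The genes muc5.1 and agr2 and all gene lists were chosen with earlier results of these data known. Named list genes are the 2 to 4 with the smallest p for boscalid minus DMSO, beside genes named for their place in the genome or for a call by another fit, and lists given by their median alone have no genes named. Likeness was ranked among genes with a mean of at least 50 and a gene symbol that is no placeholder, and the 10 closest were named. Neighbours came from RefSeq GRCz12tu, used for gene order only. The transcription factor gene spdef was not matched and is not analysed here.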

Additional observations from a re-analysis of the deposited data

Results flagged for a closer look

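Of the 24 groups of 4 libraries examined over the members and the listed mucins, 1 held a library that stood apart. For muc13b, M510F01 library 1 had 298.5 normalized counts, against 259, 256 and 257 in the other M510F01 libraries. Its gap to the nearest of these, as a share of the group's range, was 0.933, above Dixon's critical value at the 95% level for 4 samples. Chance alone flags about 1 in 20 such groups. No library of muc5.1 or agr2 was set apart by this measure.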

How the results depend on the processing

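The log2 difference of muc5.1 for boscalid minus DMSO lay between -0.80 and -0.78 under every other scaling, filter, pseudocount, tool and model term tried, and between -0.91 and -0.68 when single libraries were left out. For M510F01 minus DMSO the leave-one-out range of muc5.1 was -0.33 to -0.06, and for M510F01 minus boscalid 0.47 to 0.72. For agr2 the ranges were -0.26 to 0.08 for boscalid minus DMSO, -0.48 to -0.19 for M510F01 minus DMSO and -0.45 to -0.12 for M510F01 minus boscalid.

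Counts of genes called depended on the tool and the model, and the cause was not tested. For boscalid minus DMSO limma called 4 genes, DESeq2 91, limma with a replicate block 90, with a term for numbers 1 and 2 against 3 and 4 19, in the joint fit 9, and 2 to 8 with single libraries left out. For M510F01 minus DMSO the replicate block called 1 gene and limma without it 0. For M510F01 minus boscalid DESeq2 called 20, the replicate block 8, the number term 5 and limma 3, with 2 to 3 when libraries were left out. Of the 97 mucus genes tested, DESeq2 called 1 (muc13a) and the replicate block 1 (muc5.2) for boscalid minus DMSO. The shares of all genes called were 0.394% and 0.39%. Same-numbered libraries correlated in their deviations between -0.03 and 0.51 over the 3 comparisons. For boscalid minus DMSO the values were 0.51, 0.04, 0.37 and 0.24 for numbers 1 to 4. Not every pair lay above 0.1, so the numbers were not taken to pair samples in the main fits. That rule cannot decide whether they do, and the labels do not say. Number 1 correlated best with its own number in all 3 comparisons, at 0.51, 0.49 and 0.51, and no other number did so. The replicate block left the values of muc5.1 and agr2 at -0.79 and -0.10 and gave standard errors of 0.077 and 0.087, against 0.17 and 0.23 without it. With the block limma called muc5.1 for boscalid minus DMSO, among 0.39% of all genes, and agr2 in no comparison. The block also called krt15 (adjusted p = 0.015), gfpt2 (adjusted p = 0.027) and il4r.2 (adjusted p = 0.043) for boscalid minus DMSO, and hsp90b1 for M510F01 minus boscalid, among the listed genes. Without DMSO library 3, clcn2c passed limma's test (adjusted p = 0.035).

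Leaving out single libraries turned the sign of small M510F01 minus DMSO differences. With single libraries left out, muc5.3 ranged from -0.1229 to 0.145 and was negative without DMSO library 3 or 4 (-0.0075) or M510F01 library 1 (-0.039) or 2 (-0.049). muc5f ranged from -0.22 to 0.16 and was positive without DMSO library 1 (0.056) or M510F01 library 4. muc13b ranged from -0.054, without DMSO library 1, to 0.19.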
